A study of Rattus norvegicus with 9 samples.

Results

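The transcription factors and the receptor described here drive the making of red cells. Gata1, Klf1, Tal1, Nfe2, Gfi1b, Hemgn, Lmo2, Zfpm1 and the erythropoietin receptor Epor were the 9 genes chosen, and their expression was compared between whole bone of the rat skull (calvaria) and limb (ulna). A probe set was taken where the platform annotation named 1 of these genes and no other gene. This gave 14 of the 31042 probe sets tested, and the 9 genes stood among 14217 with a tested probe set. All animals were male CD rats with a labelled weight of 110 g and no treatment, and 4 arrays came from the skull (calvaria 1 to 4) and 5 from the limb (ulna 1 to 5). According to the study's methods each extract came from several rats, so that the spread between arrays is that between pools of animals. The methods describe removal of soft tissue, epiphyses and sutures before extraction. Removal of marrow is described there for the cell cultures and not for these bones.

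Red cells are made in the marrow from progenitors that are shared with platelet-forming megakaryocytes. GATA1 is the zinc finger factor without which erythroid precursors do not mature, and FOG1, the product of Zfpm1, is its cofactor. TAL1, a basic helix-loop-helix factor, is joined through the bridging protein LMO2 to GATA1 on DNA, where it reads E-boxes while GATA1 reads GATA motifs. KLF1 binds CACCC boxes of the globin and other red cell genes. Erythropoietin acts through EPOR and the kinase JAK2 to keep late progenitors alive.

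Promoter sequences of the members are shown because these factors bind short motifs that can be looked for in each other's genes. RefSeq promoters of the GRCr8 assembly, each with 250 bases before the start and 50 from it, were at hand for 7 of the 9 members, with 8 promoters in all since Hemgn has a pair of starts. Nfe2 and Lmo2 had no entry. A GATA motif (AGATAA, its variant AGATAG, the form TGATAA or its variant TGATAG, on either strand) was found in 4 of the 8 promoters, those of Klf1, Gfi1b, Epor and 1 start of Hemgn, against 30.3% of 33365 promoters of the same length. The CACCC box (CCACCC, either strand) was found in 3 of the 8, against 29.4%. An E-box (CANNTG, the same on both strands) was found in 6 of the 8, against 72.1%, and the NF-E2 motif (TGAGTCA, either strand) in 0 of the 8, against 4.64%. No matches of different motifs overlapped. A match is a run of letters and does not show binding. The 4 promoters with a GATA motif and that of Gata1, which held a pair of CACCC boxes, are given 5′ to 3′ in the sense of the gene, with GATA and CACCC matches in capitals. They lie at chrX:17201387-17201686, plus strand (Gata1), chr19:40158602-40158901, minus strand (Klf1), chr3:32350852-32351151, minus strand (Gfi1b), chr8:28770273-28770572, minus strand (Epor) and chr5:65485772-65486071, minus strand (Hemgn, one of its starts).
Gata1: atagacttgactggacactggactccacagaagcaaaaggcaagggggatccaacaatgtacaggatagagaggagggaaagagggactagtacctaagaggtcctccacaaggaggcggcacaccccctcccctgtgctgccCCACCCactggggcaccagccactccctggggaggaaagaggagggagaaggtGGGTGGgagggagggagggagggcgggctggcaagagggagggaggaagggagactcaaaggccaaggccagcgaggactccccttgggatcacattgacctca
Klf1: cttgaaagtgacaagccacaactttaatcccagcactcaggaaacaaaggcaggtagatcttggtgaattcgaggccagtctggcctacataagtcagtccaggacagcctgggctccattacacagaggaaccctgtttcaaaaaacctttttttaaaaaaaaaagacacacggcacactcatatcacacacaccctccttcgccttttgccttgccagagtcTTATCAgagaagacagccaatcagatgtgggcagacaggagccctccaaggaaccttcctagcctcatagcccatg
Gfi1b: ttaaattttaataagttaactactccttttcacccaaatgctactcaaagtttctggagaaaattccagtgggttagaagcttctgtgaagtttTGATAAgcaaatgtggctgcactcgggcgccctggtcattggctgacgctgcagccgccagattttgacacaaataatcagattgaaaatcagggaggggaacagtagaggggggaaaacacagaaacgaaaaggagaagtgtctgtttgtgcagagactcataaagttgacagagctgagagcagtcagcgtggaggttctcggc
Epor: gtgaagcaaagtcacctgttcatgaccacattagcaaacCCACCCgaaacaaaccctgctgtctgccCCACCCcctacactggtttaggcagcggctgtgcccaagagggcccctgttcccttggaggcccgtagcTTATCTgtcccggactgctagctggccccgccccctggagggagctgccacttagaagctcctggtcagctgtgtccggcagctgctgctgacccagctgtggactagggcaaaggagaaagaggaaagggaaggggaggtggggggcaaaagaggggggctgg
Hemgn: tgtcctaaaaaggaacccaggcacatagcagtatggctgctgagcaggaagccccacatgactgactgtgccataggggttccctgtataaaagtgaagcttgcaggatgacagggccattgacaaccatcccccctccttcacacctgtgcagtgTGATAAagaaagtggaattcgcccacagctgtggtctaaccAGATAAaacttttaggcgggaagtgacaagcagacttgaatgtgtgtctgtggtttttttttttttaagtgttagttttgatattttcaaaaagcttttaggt
The GATA match of Klf1 began 26 bases before the start, that of Epor 114 bases and that of Gfi1b 156 bases before it. Those of Hemgn began 94 and 53 bases before its start. The remaining CACCC box, that of Zfpm1, began 50 bases before the start.

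Some facts of the whole set of arrays bear on the values. Array medians lay between 33.01 and 36.59 signal units before they were scaled to a common median. One label field names calvarial bone for ulna 1, 2, 3 and 4, whereas their titles and source names give the ulna. The titles were followed, and Hoxa9, which marks limb and trunk positions, had a mean signal of 2.81 on the skull arrays and 69.6 on the limb arrays with no overlap. Osteoblast markers were bright at both sites, their summed signal being 37511 to 48554 in the skull and 28123 to 38106 in the limb. On an adjusted p below 0.05 in limma 5 of the 9 measured were higher in the skull and 0 lower, against 14.2% and 18.1% of all genes. Of them Ibsp alone reached 2-fold (1.06 ± 0.11). Of 20 skeletal muscle markers 19 were called lower in the skull, and their summed signal was 178 to 253 there against 11332 to 29321 in the limb. The other, Myh1, was bright at both sites and higher in the skull at less than 2-fold (600.7 against 399 in the limb, 0.59 ± 0.12). The log2 ratio of 3′ to 5′ control probe sets, a sign of RNA quality, was 0.277 to 0.594 in the skull and 0.209 to 0.372 in the limb for Gapdh. Calvaria 3 had the highest ratio of all arrays for Gapdh and for actin. The part of muscle RNA and of RNA quality in the differences given here was not tested.

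Skull bone had less of nearly all of these transcripts than limb bone. With the brightest probe set standing for each gene, 8 of 9 members were called lower in the skull and 0 higher. A call here is an adjusted p below 0.05 in limma with a difference of at least 2-fold. Over all genes 4.47% were called lower and 3.59% higher, 8.07% in either direction. The median log2 difference of the members was -1.55, against -0.02 over all genes. The 8 called genes were 2.29- to 3.56-fold lower in the skull, and the lowest limb array exceeded the highest skull array by 1.50- to 2.70-fold. Lmo2 was the exception, and it differed by less than 2-fold. Over probe sets, 9 of 14 were called lower, against 3.36% of all probe sets (6.24% in either direction). In whole bone, fewer erythroid cells and less RNA per erythroid cell cannot be told apart.

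**Figure D1:**
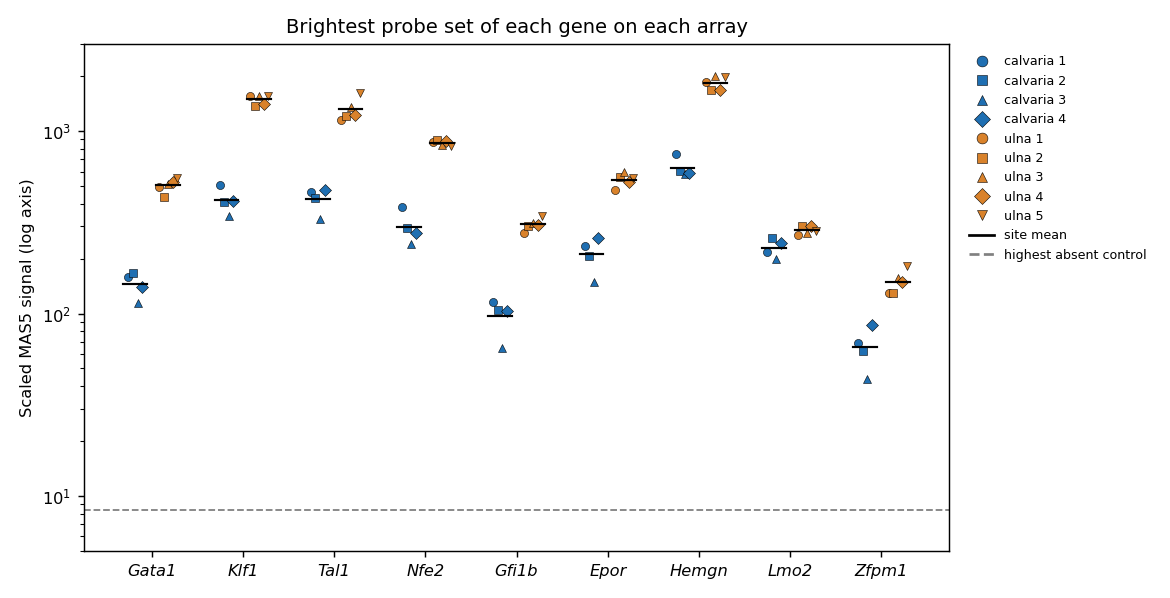
Scaled MAS5 signal (log axis) of the brightest probe set of each of the 9 genes on each array, with the 4 skull (calvaria) arrays to the left of the 5 limb (ulna) arrays; bars give the site mean and the dashed line the highest absent control (8.34). All skull arrays lie below all limb arrays for each gene, by a small margin for Lmo2, and calvaria 3 is the lowest skull array throughout.

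Gata1, the zinc finger master factor of the lineage, had signals of 159, 166, 114 and 139.8 on calvaria 1 to 4, against 493, 438, 515, 526 and 551 on ulna 1 to 5. The arrays of the sites did not come near each other, and the lowest limb array was 2.63 times the highest skull array. The mean was 145 ± 23.6 in the skull (SD, n = 4 arrays) and 505 ± 42.8 in the limb (n = 5), a log2 difference of -1.81 ± 0.12 (SE) with an adjusted p of 2.74e-05 in limma. The ratio of skull to limb (S:L ratio) was 0.287.

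Zfpm1 encodes FOG1, the cofactor that GATA1 holds through its zinc finger. Its brightest probe set gave 69, 62.1, 43.9 and 86.2 on calvaria 1 to 4, against 129.9, 129.3, 156, 149 and 182 on ulna 1 to 5. The sites did not overlap, but the limb signals stood only 1.50 times above the skull signals at their nearest. The log2 difference was -1.22 ± 0.19 (adjusted p = 0.00163 in limma), the smallest among the 8 called genes. Both other probe sets of Zfpm1 were dim, 1 of them at or below the highest absent control (a signal of 8.34 among 3 bacterial control probe sets with no target in the sample) on 8 of 9 arrays and the other on all 9. Neither of them was called. When the 3 probe sets were averaged the difference was -0.62 with an adjusted p of 0.0638, so that the call of Zfpm1 rests on its brightest probe set.

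Tal1, the helix-loop-helix partner of the complex, had signals of 465, 429, 330.4 and 477 on calvaria 1 to 4, against 1156, 1206, 1361, 1223 and 1626 on ulna 1 to 5. Ulna 5 stood above the other limb arrays, and calvaria 3 below the other skull arrays. The log2 difference was -1.63 ± 0.13 (adjusted p = 7.13e-05 in limma) and the S:L ratio 0.324. A second probe set of Tal1 was dim, with 10.7 to 22.1 in the skull and 15.8 to 35 in the limb. Its sites overlapped and it was not called, with a log2 difference of -0.55 (95% interval -1.29 to 0.20).

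Lmo2, the LIM-only protein that bridges TAL1 and GATA1, had signals of 218, 259.7, 198 and 244 on calvaria 1 to 4. On ulna 1 to 5 it had 269, 301, 276, 300.5 and 285. The sites were separate by a narrow margin, the lowest limb array being 1.04 times the highest skull array. The skull mean was 229.98 ± 27.4 and the limb mean 286 ± 14.4 (SD, n = 4 and 5), an S:L ratio of 0.804. The log2 difference was -0.32, with a 95% interval of -0.51 to -0.14 that lies wholly short of 2-fold. Its adjusted p was 0.0216 in limma. That p stayed below 0.05 in most other settings but was 0.0927 after quantile normalization, 0.0753 on the deposited signals without further scaling and 0.05025 without the intensity trend. It was 0.0582 without calvaria 1, and 0.0515 without ulna 2 and also without ulna 4.

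Klf1, the Krüppel-like factor of globin and red cell membrane genes, had the largest log2 difference of the members, at -1.84 ± 0.11 (adjusted p = 2.29e-05 in limma). Its signals were 508, 411, 341 and 415 on calvaria 1 to 4, against 1562, 1372, 1556, 1409.7 and 1550.5 on ulna 1 to 5. The limb arrays lay close together (CV 6.15%) while the skull arrays varied more (16.4%). The S:L ratio was 0.281.

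Gfi1b, a zinc finger repressor needed for erythroid and megakaryocytic maturation, had signals of 116, 104, 64.4 and 104 on calvaria 1 to 4, against 276, 303, 312, 307 and 341 on ulna 1 to 5. Calvaria 3 was well below the other skull arrays. The log2 difference was -1.70 ± 0.16 (adjusted p = 1.21e-04 in limma) and the S:L ratio 0.315.

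Nfe2 encodes the large subunit of NF-E2, a basic leucine zipper factor of red cell precursors and megakaryocytes. It gave 383, 293, 239 and 278 on calvaria 1 to 4, against 868, 891, 836, 882 and 825 on ulna 1 to 5. The limb arrays had the smallest spread of any member (CV 3.36%). The log2 difference was -1.55 ± 0.12 (adjusted p = 5.24e-05 in limma) and the S:L ratio 0.347.

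Hemgn, hemogen, is a nuclear protein of blood-forming cells. It gave 751, 602, 581 and 588 on calvaria 1 to 4, against 1862, 1673, 1994, 1684 and 1981 on ulna 1 to 5. Calvaria 1 stood above the other skull arrays but below every limb array. The log2 difference was -1.55 ± 0.10 (adjusted p = 2.62e-05 in limma) and the S:L ratio 0.343.

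Epor, the receptor that erythroid progenitors need in order to respond to erythropoietin, had 3 probe sets, and 2 of them were called. The brightest gave 235, 207, 149 and 259.7 on calvaria 1 to 4, against 472, 558, 598, 529 and 552 on ulna 1 to 5. Its log2 difference was -1.37 ± 0.15 (adjusted p = 2.67e-04 in limma), an S:L ratio of 0.393. The other called probe set gave nearly the same difference, -1.34 ± 0.12 (adjusted p = 1.09e-04), from signals of 47.2 to 66.1 in the skull and 131 to 173 in the limb. The third was dim (4.22 to 29.6 in the skull, 16.4 to 37.9 in the limb), its sites overlapped, and it was not called at -0.86 (95% interval -2.17 to 0.45).

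**Figure D2:**
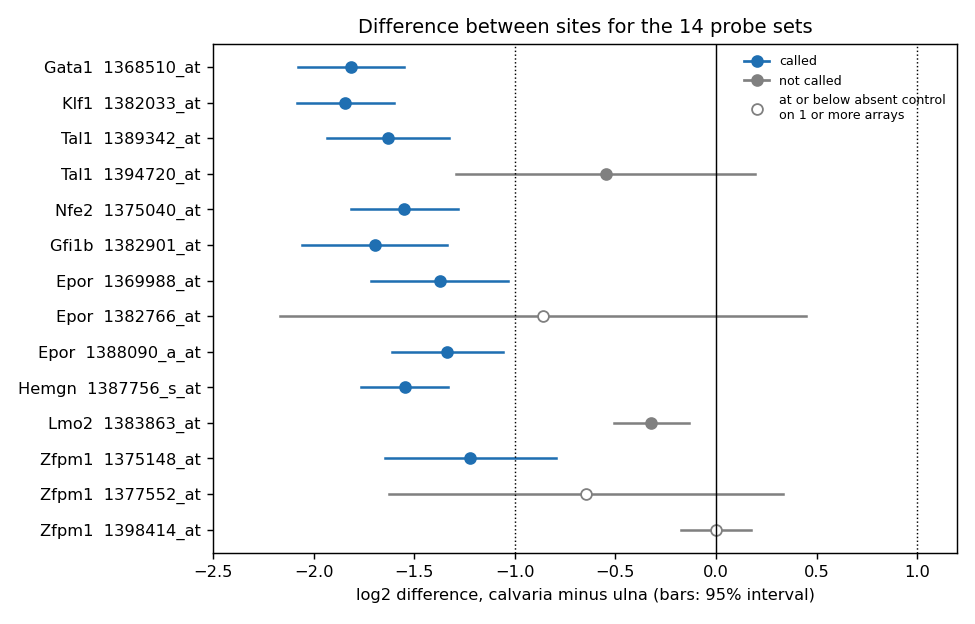
Log2 difference (skull minus limb) with its 95% interval for the 14 probe sets of the 9 genes; dotted lines mark 2-fold and open symbols are probe sets at or below the highest absent control on 1 or more arrays. The 9 called probe sets lie between -1.84 and -1.22, Lmo2 lies at -0.32, and the 4 other probe sets not called are dim with wide intervals or sit at the floor.

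All 4 skull arrays lay below all 5 limb arrays for 9 of 9 members on their brightest probe sets, a pattern held by 16.4% of all genes, and for 10 of 14 probe sets, against 11.8% of all probe sets. For the members the skull arrays were the more variable, with a CV of 11.9% to 26.8% against 3.36% to 14.5% in the limb. The skull CV was the higher for 9 of 9, and the share over all genes was not counted. Calvaria 3 was the lowest skull array for each of the 9 genes, so that their CVs are not separate evidence. Other gene lists did not all vary more in the skull. The SD between arrays of the mean log2 signal of red cell products was larger among skull arrays (0.258, limb 0.090). That of endothelial genes was smaller among skull arrays (0.009, limb 0.135). The mean log2 signal of the 9 members was 7.99, 7.84, 7.45 and 7.90 on calvaria 1 to 4, against 9.16, 9.17, 9.29, 9.22 and 9.35 on ulna 1 to 5. Calvaria 3 was also the lowest of all arrays for the mean log2 signal of 19 red cell products (8.38) and of 11 megakaryocyte genes (6.12). Without calvaria 3, 8 members were still called lower.

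The members were then set beside the genes they act with. Of 21 measured partner and co-regulator factors, 2 were called lower in the skull and 0 higher, against 4.47% and 3.59% of all genes. Their median log2 difference was -0.50. The called genes were Mafk, a small Maf protein that pairs with the product of Nfe2, and Bach1, a repressor released by heme. Mafk had a mean signal of 83.6 in the skull and 177 in the limb, a log2 difference of -1.09 ± 0.14 (adjusted p = 3.74e-04). Bach1 was at or below the highest absent control on 5 arrays, with mean signals of 3.40 and 16.1, so that its level in the skull is not measured. These counts use the brightest probe set of each gene, which was not called for Sox6 (-0.99) or Mafg (-0.55). A dimmer probe set was called lower for Sox6 (-1.64 ± 0.13) and for Mafg (-1.09 ± 0.23). Without the 2-fold threshold 14 of the 21 were lower and 0 higher, against 18.1% of all genes lower and 14.2% higher.

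Several of these factors differed by less than 2-fold with a small error. Lyl1, a close relative of Tal1, had a mean of 202 in the skull and 363 in the limb (log2 difference -0.84 ± 0.08). Ldb1, which holds LMO2 complexes together across DNA, had 258 and 377 (-0.54 ± 0.04). E2f2, a cell cycle factor, was at -0.91 ± 0.08, Foxo3 at -0.72 ± 0.06 and Myb, a factor of immature progenitors, at -0.52 ± 0.08. The adjusted p of each of these 5 was below 0.05. Gata2, which is used by earlier progenitors and mast cells and gives way to GATA1 in erythroid maturation, had a skull mean of 80.8 against 88.5 in limb bone and did not pass (-0.18 ± 0.21). Gfi1, the paralog of Gfi1b used in myeloid cells, was at -0.05 ± 0.14, Runx1 at -0.29 ± 0.16 and the demethylase Kdm1a at 0.04 ± 0.07, and none of them passed.

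Transcripts of 20 genes of Epo signalling, Epo included, had a median log2 difference of -0.28. Signalling itself was not measured. Of the 20, 2 were called lower in the skull and 0 higher, against 4.47% and 3.59% of all genes. The called genes were Tfr2 and Pim1. Tfr2, transferrin receptor 2, associates with EPOR (43.1 in skull bone and 156 in limb bone, -2.00 ± 0.29). The kinase gene Pim1 is a STAT5 target (24 and 66.6, -1.45 ± 0.17). On the adjusted p alone 8 of the 20 were lower and 1 higher, against 18.1% and 14.2% of all genes. Bcl2l1, whose product Bcl-xL protects erythroblasts, was lower at -0.91 ± 0.19, Stat5b at -0.50 ± 0.11 and Irs2 at -0.65 ± 0.15. Socs3, a feedback inhibitor of cytokine receptors, was higher, with 42.8 in the skull and 22.7 in the limb (0.92 ± 0.19, adjusted p = 0.005). Without calvaria 2, and likewise without ulna 1, 1 gene of this list was called higher. Jak2 (-0.20 ± 0.12), Stat5a (-0.12 ± 0.07), Socs2 (-0.02 ± 0.17) and Cish (-0.42 ± 0.21) did not pass. Epo, made mainly in the adult kidney, was at or below the highest absent control on 9 of 9 arrays.

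**Figure D3:**
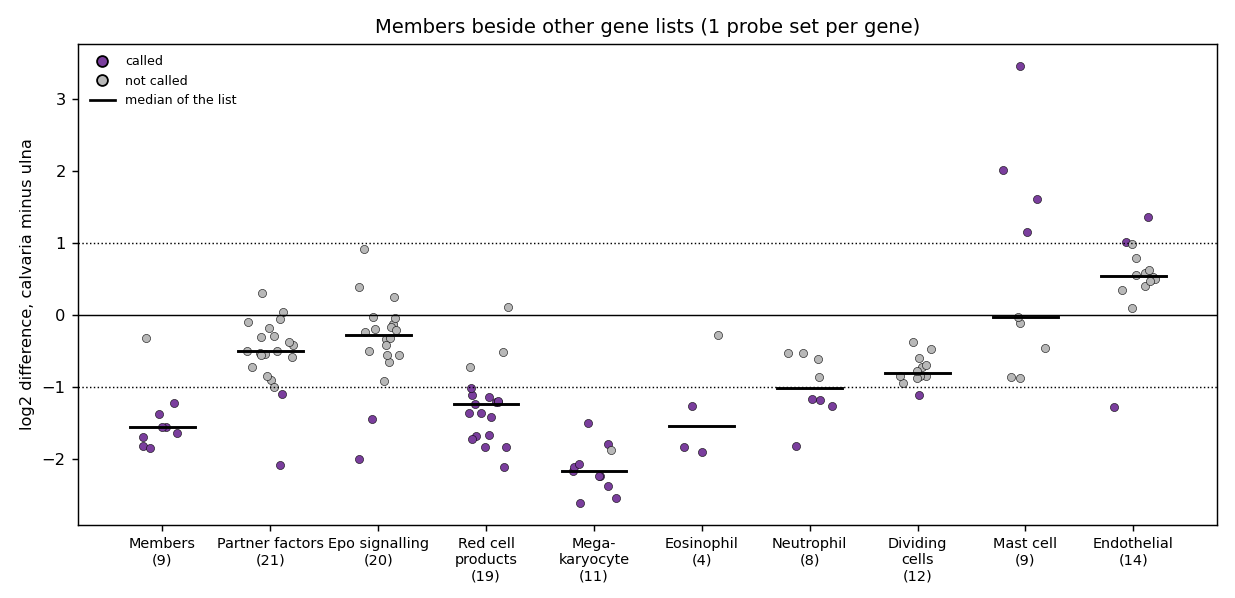
Log2 difference (skull minus limb) of the brightest probe set of each gene, for the 9 members and 9 other gene lists with the number of measured genes in brackets; bars are list medians and dotted lines 2-fold. The members lie at a median of -1.55, between the red cell products at -1.24 and the megakaryocyte genes at -2.17, while the partner factors (-0.50) and Epo signalling genes (-0.28) lie nearer to 0.

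The genes of maturing red cells were lower in the skull as well. Of 19 measured red cell products 16 were called lower and 0 higher, against 4.47% and 3.59% of all genes. The median was -1.24 and the summed signal 18581 to 20063 in the skull against 29774 to 37678 in the limb. The 3 with the smallest adjusted p were Epb42, the membrane skeleton protein 4.2 (-1.84 ± 0.13), Gypc, glycophorin C (-1.35 ± 0.10), and Bpgm, the enzyme that makes 2,3-bisphosphoglycerate (-1.21 ± 0.09). Tfrc (-0.50 ± 0.11) and Sptb (-0.71 ± 0.71) were not called. Hbb was also not called (0.11 ± 0.15), and its mean signals of 6699 and 6271 lay near the top of the scale. Hbb is a large part of the summed signals, which therefore understate the difference of the other genes.

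Of 11 measured megakaryocyte genes 10 were called lower and 0 higher, with a median of -2.17, against 4.47% and 3.59% of all genes called. Their summed signal was 1831 to 2687 in the skull against 8033 to 8813 in the limb. Those with the smallest adjusted p were Tubb1, the platelet beta-tubulin (-2.24 ± 0.10), Treml1 (-2.23 ± 0.11) and the platelet chemokine Ppbp (-2.54 ± 0.13). Gata1, Tal1, Nfe2, Gfi1b and Zfpm1 are used by megakaryocytes as well as by erythroid cells, and the share of each cell type in their signals was not tested.

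Each member was then compared with these lists within the arrays, as its log2 signal minus the mean log2 signal of the list on the same array. Relative to red cell products, 6 members were lower still in the skull and Lmo2 was higher, 7 of 9 passing a two-sided exact permutation test over the 126 divisions of 9 arrays with adjustment over the 9 members. Gata1 was at -0.54 and Klf1 at -0.57 on the log2 scale, each with an exact p of 0.00794, the smallest these divisions allow (adjusted p = 0.0238). Lmo2 was at +0.95 with the same p. Gfi1b was at -0.42 and Nfe2 at -0.28 (both adjusted p = 0.0286 in the exact test), Tal1 at -0.36 and Hemgn at -0.28 (both 0.0306). Epor (-0.10, exact p = 0.381) and Zfpm1 (0.05, exact p = 0.754) did not pass.

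The number that passed depended on the genes of the list. Without Hbb in the list, a setting added after the data were seen, 4 members passed (Gata1, Klf1, Gfi1b and Lmo2) and Gata1 was at -0.46. With any 1 array left out the differences stayed at -0.58 to -0.49 for Gata1, -0.60 to -0.54 for Klf1 and 0.90 to 1.05 for Lmo2. Without calvaria 2, 4 members passed. Without ulna 2, ulna 3, ulna 4 or ulna 5, 0 passed and the smallest adjusted p was 0.0514. With 4 arrays against 4 the exact two-sided p cannot be below 0.0286 before adjustment. The adjusted p then depends on how many members reach that value. That limit alone did not keep members from passing, since 8 or 9 passed in the megakaryocyte comparison with any 1 array left out. In the megakaryocyte comparison all 9 members were higher in the skull relative to the list, from 0.29 for Klf1 (adjusted p = 0.0318 in the exact permutation test) and 0.32 for Gata1 to 0.91 for Zfpm1 and 1.81 for Lmo2. They passed 9 of 9, and 8 or 9 with any 1 array left out.

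**Figure D4:**
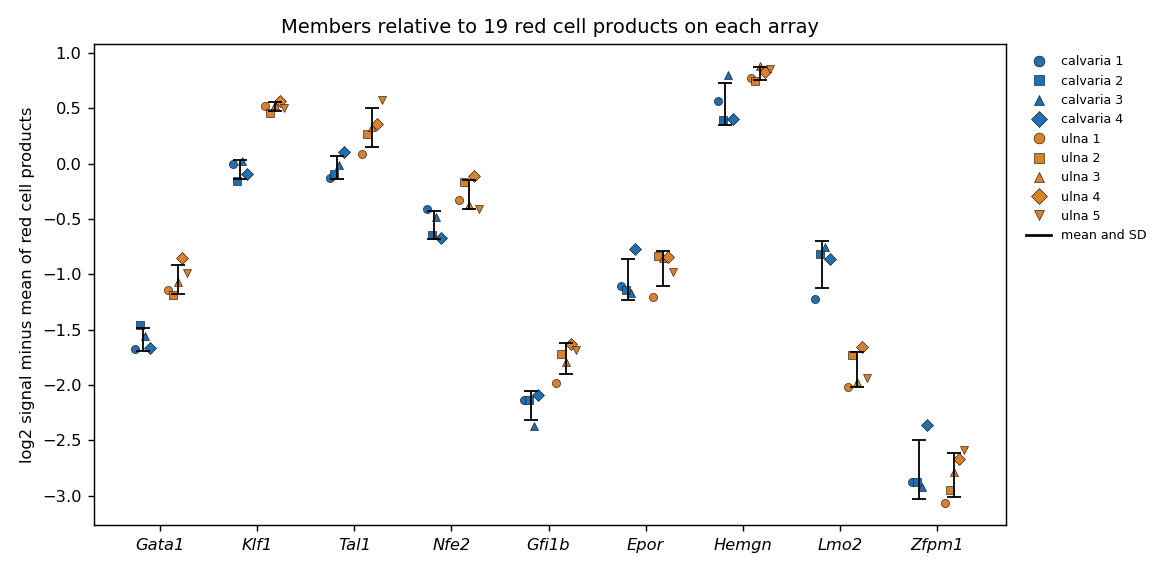
Log2 signal of each member minus the mean log2 signal of 19 red cell products on the same array, for 4 skull (calvaria) and 5 limb (ulna) arrays; bars give the mean and SD of each site. Gata1 and Klf1 lie lower in the skull by 0.54 and 0.57, Lmo2 lies higher by 0.95, and the sites overlap for Epor and Zfpm1.

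Other cells of bone also use some of these factors. Mast cells use Gata1, Gata2 and Tal1. The summed signal of 9 mast cell genes was 696 to 907 in the skull against 398 to 502 in the limb. Of the 9, 4 were called higher and 0 lower in the skull, against 3.59% and 4.47% of all genes. The 4 were the protease genes Cpa3 (216 in the skull and 53.3 in the limb, 2.02 ± 0.16), Cma1 (1.15 ± 0.15), Tpsb2 (1.61 ± 0.24) and Tpsab1 (3.47 ± 0.53). The list did not move one way, and its median was -0.03. On the adjusted p alone 4 were higher and 2 lower, against 14.2% and 18.1% of all genes. The lower ones were the IgE receptor gene Ms4a2 (52.1 against 94.2 in the limb, -0.86 ± 0.12) and Slc18a2 (-0.88 ± 0.19). Both had all skull arrays below all limb arrays, as had 16.4% of all genes. A dimmer probe set of Slc18a2 was called lower (-2.29 ± 0.53), with a skull mean of 7.53 that lies below the highest absent control. The receptor genes Fcer1a (-0.03 ± 0.20) and Kit (-0.11 ± 0.28) did not pass. Without calvaria 2, and likewise when the probe sets of a gene were averaged, 1 gene of the list was called lower. Eosinophil genes, another lineage that needs GATA1, were called lower in 3 of 4 measured, namely Epx, Prg2 and Ccr3, against 4.47% of all genes. The summed signal of the 4 was 1922 to 3180 in the skull against 6165 to 7820 in the limb.

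Lmo2 and Tal1 are also expressed in endothelial cells. Of 14 endothelial genes 2 passed with more signal in the skull, Emcn (1.02 ± 0.08) and Cldn5 (1.36 ± 0.33), and 1 with less, Vwf (-1.27 ± 0.11), which megakaryocytes also make. Over all genes 3.59% were called higher and 4.47% lower. The median was 0.54. On the adjusted p alone 10 of the 14 were higher and 1 lower, against 14.2% and 18.1% of all genes. Without calvaria 3, and likewise without ulna 3, 1 of the 14 was called higher. The summed signal was 2658 to 2816 in the skull against 1814 to 2241 in the limb. Lmo2 stood between lists that differed in opposite directions, and the part of endothelial cells in its signal was not tested. None of the mast cell, eosinophil or endothelial genes measured was at or below the highest absent control on all arrays. Ccr3 was at or below it on 2 skull arrays, Tpsab1 on 2 limb arrays and Il5ra, an eosinophil gene that was not called, on 4 arrays. The size of the Ccr3 and Tpsab1 differences is therefore uncertain.

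Of further lists, neutrophil genes and genes of dividing cells were lower in the skull as well, while B lineage genes did not pass. Of 8 neutrophil genes 4 were called lower in the skull and 0 higher (median -1.01), against 4.47% and 3.59% of all genes. The summed signal of these 8 was 10139 to 12562 in the skull against 16331 to 21170 in the limb. The 12 measured genes of dividing cells were all lower on the adjusted p, against 18.1% of all genes, but 1 of them, Tyms, reached 2-fold. Without calvaria 3 none of them was called by limma, and without calvaria 1 there were 2. Their summed signal was 5897 to 7271 in the skull against 9477 to 11116 in the limb. Of 3 measured B lineage genes 0 were called by limma in either direction and 0 passed on the adjusted p alone (median -0.30). The median of the members lay below those of all 3 lists, and the difference between lists was not tested.

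Likeness across the 9 arrays was measured as the root mean square difference between log2 signals, each centred on its own mean. Among the members themselves the distance was 0.116 to 0.377 for any pair without Lmo2 and 0.506 to 0.777 for a pair with it. The nearest pair was Gata1 and Klf1. Of 9745 genes outside the members, the nearest to Gata1 were Epb42 (0.111), Plek, Rhd, Rgs18 and F5, and those nearest to Klf1 were Myo5c (0.0957), Epx, Gclm, Rgs18 and Slc22a4. Gfi1b lay nearest to Dmtn (0.0622), Xk, Kel, Slc2a3 and Gadd45a. The genes nearest to Lmo2 were Ypel3 (0.0512), Ewsr1, Ezr, Anapc7 and Guk1, whose log2 differences between sites were -0.28 to -0.36. These distances are descriptions over 9 arrays and are set mostly by the difference between the sites.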

How the data were processed

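Signals from 9 Affymetrix rat arrays (4 calvaria, 5 ulna) were grouped by titles and source names. The deposited values are intensities, MAS5 signals computed and scaled per array by the authors; precision is limited by the number of arrays, and no counts exist. Here arrays were brought to a common median over 31042 non-control probe sets (57 controls left out), floored at the 10th percentile (2.51) and taken to log2, which understates differences at the floor. The sites were compared with limma (3.58.1, R 4.3.3; lmFit, eBayes with trend) over all probe sets, with Benjamini-Hochberg adjustment; calls needed an adjusted p below 0.05 and 2-fold. All differences are calvaria minus ulna. S:L ratios use unfloored means. Of the probe sets 20826 had 1 gene symbol, 436 several and 9780 none, and 20758 matched RefSeq genes. A gene stood for its brightest probe set, with p adjusted over 14217 genes; adjusted p of single members are those over probe sets, those of listed genes are over genes. Across other lists, genes named by rule were the 3 with the smallest adjusted p among those called, or the 2 brightest; other names were chosen after their values were seen. Of 188 list entries 155 were measured. Members were set against list means by exact permutation over the arrays. Alternatives changed the scaling, floor, dim filter, prior, weights, test, pairing and arrays. The limma test was checked on simulated data. The members and lists were chosen with earlier results of these data known.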

Additional observations from a re-analysis of the deposited data

Results flagged for a closer look

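Of 25 combinations of a member probe set and a site tested for an outlying array, 1 was flagged, and chance alone flags about 1 in 20. Hemgn had a signal of 751.3 on calvaria 1, against 581.1 to 601.9 on the other skull arrays. This gap made up 0.878 of the range of the skull arrays, above Dixon's critical value for 4 samples. The cause was not tested.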

How the results depend on the processing

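The 9 member probe sets called lower and the 8 member genes called lower kept their calls under every alternative run, arrays left out included, except that 7 genes were called when the probe sets of a gene were averaged, which lost Zfpm1. No direction turned among the results that were called. With the pseudocount, log2(signal + 16), the counts over all probe sets were 595 lower and 437 higher, against 1042 and 896, and over all genes 401 lower and 285 higher, against 636 and 511. The partner factors called lower were 1 with the floor at the 25th percentile, 0 with log2(signal + 16) and 1 without dim probe sets, against 2. With 1 array left out, Epo signalling genes called higher ranged from 0 to 1. Members passing relative to red cell products ranged from 0 to 6, against 7 with all arrays, and those relative to megakaryocyte genes from 8 to 9. The differences relative to red cell products hardly moved. A test of 4 arrays against 4 is coarser, but members still passed in the megakaryocyte comparison. Endothelial genes called higher ranged from 1 to 3 and were 1 with log2(signal + 16), against 2, and genes of dividing cells called lower from 0 to 2 and were 0 with log2(signal + 16), against 1. Without Hbb in the list, added after the data were seen, 4 members passed. Whether replicate numbers pair these arrays was not settled, since the labels do not say which pool of rats gave which array. Same-numbered arrays had correlations of 0.120, -0.003, 0.021 and 0.124 in their deviations. Skull and limb arrays of different numbers had correlations of -0.134 to 0.084. With the replicate number as a block, which leaves out ulna 5, 9 member probe sets and 8 member genes were still called. In the same block 0 members passed relative to red cell products and 0 relative to megakaryocyte genes, because 4 pairs cannot reach the threshold. Probe sets near the absent controls allow no statement on dim transcripts.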
